A study of Mus musculus with 12 samples.

Results

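The miR-143 and miR-145a cluster was followed through small RNA libraries from cardiac mitochondria. Its 4 members are the mature miRNAs mmu-miR-143-3p, mmu-miR-143-5p, mmu-miR-145a-5p and mmu-miR-145a-3p, taken by name from the 932 rows of the table, of which 730 carry a mouse miRNA name. They are both arms of 2 hairpins, and all 4 were above 0 in every library and passed the filter on low values. The study sequenced miRNA from mitochondria isolated from mouse hearts, with 6 WT and 6 db/db libraries. db/db animals lack a working leptin receptor and grow obese and diabetic. The labels give no strain, age, sex or treatment, and no other fraction of the heart is among the samples. Samples of a genotype are numbered 1 to 6, but nothing says whether each number is its own mouse. The p-values below therefore reflect only how far these samples spread, and that spread may be technical.

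miR-143 and miR-145 are cut from transcripts of a single locus. In a RefSeq table of GRCm38.p6 both hairpins lie within the bounds of Carmn, a long noncoding RNA gene also called Mir143hg, with miR-143 upstream. In GENCODE M21, on the same assembly, Carmn ends before them and both lie downstream of it on its strand, so the 2 annotations differ on whether they are inside the gene. The files were made on GRCm39, and no coordinates are given for that reason. In vessel walls the cluster is switched on by serum response factor and myocardin, and it is among the most abundant miRNAs of smooth muscle cells and pericytes. Both miRNAs hold smooth muscle in its contractile state, miR-145 in part by repressing the transcription factor Klf4. Outside the vessel wall, miR-143 is known for rising in the liver of obese mice and impairing insulin signalling there.

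Other miRNAs of the same libraries are used below for comparison, and their mature sequences are shown so that their seeds can be read. The first 5 had the between-library patterns nearest to that of miR-143-3p, and the last 4 are known for promoting smooth muscle proliferation. Capitals mark the seed, bases 2 to 8, and the sequences are from RefSeq on GRCm38.p6.
miR-22-3p: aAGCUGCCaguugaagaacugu
miR-21a-5p: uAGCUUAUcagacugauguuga
miR-23a-3p: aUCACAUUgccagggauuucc
miR-223-3p: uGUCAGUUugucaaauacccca
miR-195a-5p: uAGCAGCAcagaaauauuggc
miR-24-3p: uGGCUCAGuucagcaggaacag
miR-221-3p: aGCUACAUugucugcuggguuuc
miR-222-3p: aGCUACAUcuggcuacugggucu
miR-31-5p: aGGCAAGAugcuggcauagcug
Only miR-221-3p and miR-222-3p of these 9 share a seed, and the sequences of the 4 members are not shown here.

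Values are in RPM, reads per 1000000 assigned to the listed rows. The RPM values gave totals of 412749 to 1382046 recovered reads a library, so 1 read was worth 0.724 to 2.42 RPM. Some rows have the same mean and SD in both genotypes. A read may therefore count in more than 1 row, and these totals may exceed the number of separate reads. Heart muscle markers were present in both genotypes. The 8 cardiomyocyte miRNAs summed to between 373521 and 426642 RPM in WT and between 342542 and 445089 RPM in db/db libraries. miR-133a-3p made up most of this, with a mean of 323867 of 394173 RPM in WT and 341153 of 401278 RPM in db/db libraries. miR-208b-3p alone among the 8 was at 0 in some libraries. WT 4 had the fewest reads of its genotype and db/db 6 the fewest of all.

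The cluster was dominated by 1 product. miR-143-3p, the guide arm of miR-143, made up 79.8% ± 3.18 of the cluster (SD, n = 12) and miR-145a-5p, the guide arm of miR-145a, 18.2% ± 3.02. The passenger arm miR-145a-3p held 1.86% ± 0.636 and the passenger arm miR-143-5p 0.207% ± 0.130. In each of the 12 libraries the order on the RPM scale was miR-143-3p, miR-145a-5p, miR-145a-3p and miR-143-5p, and the ranges of neighbours in that order did not overlap. In mean RPM miR-143-3p was the 7th of the 730 named miRNAs, between miR-378a-3p, a miRNA of a Ppargc1b intron, and miR-24-3p. miR-145a-5p was the 30th, between miR-378c and let-7g-5p. miR-145a-3p was the 82nd and miR-143-5p the 176th, each within the spread of its neighbours in level (miR-484 and miR-22-5p, and miR-340-5p and miR-5126). A further row, miR-145b, named as a relative of miR-145a, held at most 15 reads in a library and was at 0 in 7 of the 12.

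**Figure D1:**
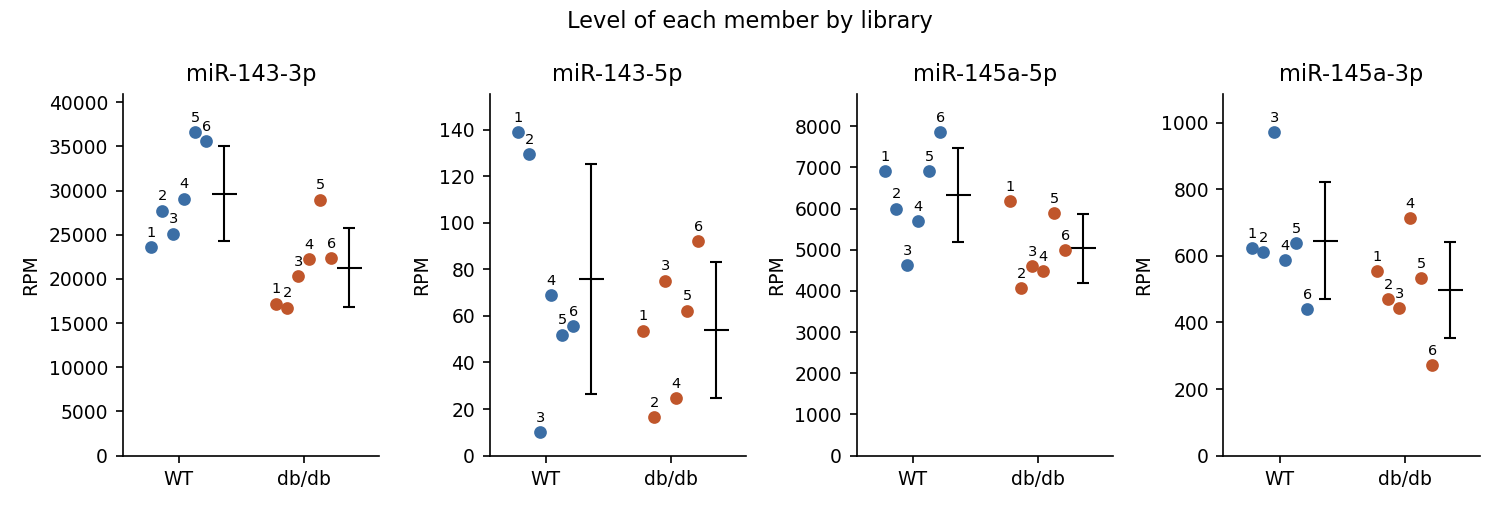
Level of each member in RPM (vertical axes, from 0) in the 6 WT (blue) and 6 db/db (orange) libraries, with the sample number beside each point and the mean ± SD at its right. miR-143-3p lay between 23602 and 36598 RPM in WT and between 16745 and 28953 RPM in db/db libraries, and each member's 2 groups overlap.

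miR-143-3p was lower in most db/db libraries. In WT libraries 1 to 6 it stood at 23602, 27704, 25132, 29092, 36598 and 35587 RPM. In db/db libraries 1 to 6 it stood at 17206, 16745, 20298, 22249, 28953 and 22319 RPM. 5 of the 6 db/db libraries lay below the lowest WT library, and the exception, db/db 5, lay above 3 WT libraries. The log2 fold change of db/db over WT was -0.48 ± 0.13 (SE; 95% interval -0.74 to -0.22), a level 28.4% lower, with a limma adjusted p of 0.0869 over all 646 miRNAs tested. It therefore did not pass the threshold of 0.05. With 1 library left out it passed without WT 1 (limma adjusted p = 0.0202), without WT 3 (0.0469) or without db/db 5 (0.0141), and in the other 9 such fits it did not pass. On the recovered reads edgeR gave -0.44 (adjusted p = 0.135) and DESeq2 -0.41 (adjusted p = 0.0961).

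miR-145a-5p did not pass either, and its estimate was also below 0. Its lowest, median and highest values were 4630, 6453 and 7854 RPM in WT and 4063, 4801 and 6178 RPM in db/db libraries. Each of the 6 db/db values was under the WT median and 3 of them were under the lowest WT value, while 3 WT values exceeded the whole db/db group. The log2 fold change was -0.33 ± 0.14 (SE; 95% interval -0.60 to -0.05; limma adjusted p = 0.504).

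The passenger arms were measured with less precision. miR-145a-3p had a lowest, median and highest value of 439, 617 and 971 RPM in WT and 271, 502 and 713 RPM in db/db libraries. Its highest value was in WT 3 and its lowest in db/db 6, and 5 of 6 db/db libraries were below the WT median. The log2 fold change was -0.39 ± 0.20 (SE; 95% interval -0.80 to 0.02; limma adjusted p = 0.599), and it came to -0.23 without db/db 6. miR-143-5p ranged from 9.99 RPM (8 reads) in WT 3 to 139 RPM (91 reads) in WT 1, with a WT median of 62.3 RPM. In db/db libraries it ranged from 16.6 to 92.1 RPM with a median of 57.9, wholly inside the WT range. Its log2 fold change was -0.32 ± 0.46 (SE; 95% interval -1.23 to 0.59; limma adjusted p = 0.770). It came to -0.81 without WT 3 and to -0.04 without db/db 2.

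Counting error was small beside the spread between libraries. For miR-143-3p the coefficient of variation was 18.2% in WT and 20.9% in db/db libraries, where read counting alone would give 0.678% and 0.806%. For miR-143-5p it was 65.2% and 53.8%, against 13.9% and 16.8% from counting alone. PCR copies are not independent molecules, and these figures cover counting error only.

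None of the 4 members passed the threshold in limma, where 1 of the 646 miRNAs tested did (0.155%). At an unadjusted p under 0.05, 2 of the 4 members were lower, miR-143-3p and miR-145a-5p, against 30 of all 646 (4.64%). Of the 64 miRNAs averaging at least 1000 RPM, a limit set after the values were seen, 10 (15.6%) were lower at that p. edgeR called none of the members and 3 of 646 miRNAs (0.464%). Of the members miR-143-3p alone was under an unadjusted 0.05 in edgeR, where 159 of 646 miRNAs were, 81 of them lower. DESeq2 called none of the 3 members to which it gave an adjusted p and 8 of the 170 miRNAs with one (4.71%). Again miR-143-3p was the only member under an unadjusted 0.05 in DESeq2, where 45 of the 646 fitted were, 21 of them lower. All 4 log2 fold changes were below 0, with a median of -0.36, and over all miRNAs tested 338 of 646 were below 0 with a median of -0.04. Products of 1 locus are not independent of each other, and 1 direction in all of them is not 4 separate observations.

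**Figure D2:**
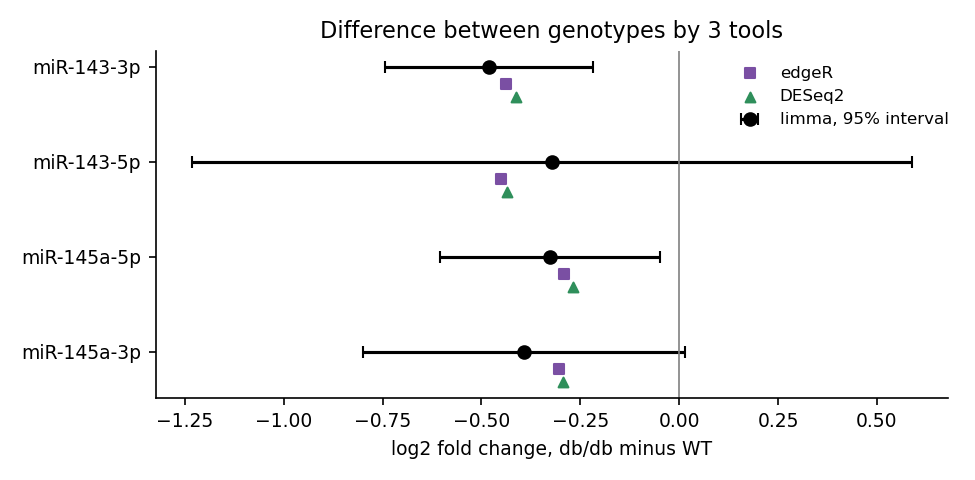
Log2 fold change of db/db over WT (horizontal axis) for each member, as the limma estimate with its 95% interval (black), the edgeR estimate (square) and the DESeq2 estimate (triangle). All estimates lie below 0, and the limma intervals of miR-143-5p and miR-145a-3p include 0.

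The 4 members together made up 3.67% ± 0.600 of a WT library and 2.69% ± 0.481 of a db/db library (SD over 6 libraries). The lowest, median and highest shares were 3.07, 3.49 and 4.42% in WT and 2.13, 2.64 and 3.54% in db/db. This sum follows miR-143-3p and is given as a description. In a mitochondrial fraction made from bulk heart, fewer cells of a type, less of a miRNA in each cell and less of it in the fraction cannot be told apart.

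The balance between the products of the locus was compared next, since a ratio within a library does not depend on how that library was scaled. miR-143-3p exceeded miR-143-5p by 170-fold to 2517-fold in WT libraries (median 531) and by 242-fold to 1010-fold in db/db libraries (median 393). The log2 ratio averaged 8.95 ± 1.36 over the 6 WT libraries and 8.79 ± 0.86 over the 6 from db/db (SD), a difference of -0.16 ± 0.66 (SE; exact permutation test, two-sided, p = 0.812; adjusted over 3 ratios, 0.812). miR-145a-5p exceeded miR-145a-3p by 4.77-fold to 17.9-fold in WT and by 6.28-fold to 18.4-fold in db/db libraries. Its mean log2 ratio was 3.31 ± 0.61 in WT and 3.38 ± 0.51 in db/db libraries, a difference of 0.07 ± 0.32 (SE; exact permutation test, two-sided, p = 0.810; adjusted 0.812). Both arm ratios had their extreme WT value in WT 3, the highest for miR-143 and the lowest for miR-145a. Without that library the 2 differences came to 0.28 and -0.15, and without db/db 6 to 0.02 and -0.10, so their signs rest on single libraries.

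Between the 2 hairpins, miR-143-3p exceeded miR-145a-5p by 3.42-fold to 5.43-fold in WT (median 4.86) and by 2.78-fold to 4.96-fold in db/db libraries (median 4.44). The mean log2 ratio was 2.23 ± 0.25 in WT and 2.07 ± 0.31 in db/db libraries, a difference of -0.16 ± 0.16 (SE; exact permutation test, two-sided, p = 0.385; adjusted 0.812). It came to -0.04 without db/db 1 and to -0.25 without WT 1. None of the 3 ratios differed between genotypes by more than the spread between libraries. In all 3 the standard error is too wide to exclude a difference as large as that of miR-143-3p.

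**Figure D3:**
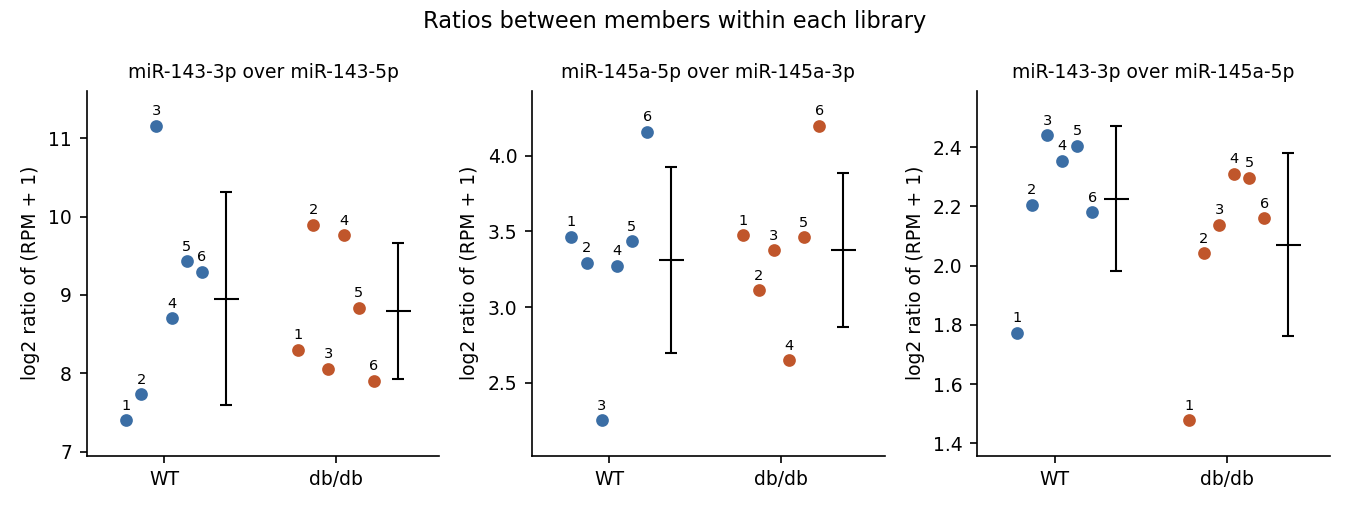
Log2 ratio of RPM + 1 between members within each library (vertical axes, which do not start at 0), for WT (blue) and db/db (orange) libraries with their sample numbers and the mean ± SD. The groups overlap in all 3 ratios, and WT 3 is the highest for miR-143 arms and the lowest for miR-145a arms.

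The members were also correlated with each other between libraries, and none of the 3 pairs tested passed after adjustment. Over the 12 libraries miR-143-3p and miR-145a-5p had a Pearson r of 0.662 on log2(RPM + 1) (permutation p = 0.0203; adjusted over 3 pairs, 0.0609) and a Spearman rho of 0.650 (permutation p = 0.0257; adjusted, 0.0771). Without WT 5 and WT 6, the libraries farthest from the median of miR-143-3p, r was 0.404. Within genotypes r was 0.565 in WT (exact permutation p = 0.246) and 0.328 in db/db libraries (exact permutation p = 0.524). The arms of miR-143 had r = 0.232 (permutation p = 0.468; adjusted, 0.701) and rho = 0.126 (permutation p = 0.699; adjusted, 1), and r was 0.304 without the same 2 libraries. The arms of miR-145a had r = -0.0045 (permutation p = 0.990; adjusted, 0.990) and rho = 0 (permutation p = 1; adjusted, 1), and r was 0.0509 without WT 6 and db/db 2. Within WT the arms of miR-145a had r = -0.864 (exact permutation p = 0.0528; adjusted, 0.158), with a rho of -0.429, and within db/db r = 0.0616 (exact permutation p = 0.922). Of the pairs not tested, miR-145a-5p with miR-143-5p had r = 0.568 and rho = 0.336 over the 12 libraries, and miR-143-3p with miR-145a-3p had r = 0.167 and rho = 0.182.

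Some miRNAs of other loci had a higher correlation with miR-143-3p than the other members had. The other named miRNAs with a mean of at least 100 RPM were compared by Pearson r with miR-143-3p over the 12 libraries. Of these, 26 had a higher r than miR-145a-5p, and most had a lower one. The median r over all those compared was 0.0695. The nearest was miR-22-3p, a miRNA of heart and skeletal muscle that takes part in hypertrophy, with r = 0.964 and rho = 0.972. It followed miR-143-3p in each genotype alone (r = 0.957 in WT, 0.971 in db/db, 6 libraries each). The level of miR-143-3p was 1.54 to 2.00 times that of miR-22-3p in every library, while its own level spanned 2.19-fold. miR-22-3p is also the 1 miRNA that limma called lower in db/db libraries (log2 fold change -0.56 ± 0.13, SE; limma adjusted p = 0.0466), a call that edgeR and DESeq2 also made and that TMM scaling of the RPM values, among other settings, ended.

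Next in likeness to miR-143-3p were miR-21a-5p, a miRNA induced in stressed fibroblasts (r = 0.958), miR-23a-3p, of the cluster that also holds miR-27a and miR-24 (0.936), miR-223-3p, a myeloid miRNA (0.933), and miR-195a-5p, a relative of miR-15 and miR-16 (0.903). These 5 have 5 different seeds, as their sequences above show, and come from different loci. Their log2 fold changes were all below 0, from -0.72 ± 0.22 for miR-223-3p to -0.23 ± 0.12 for miR-23a-3p (SE), and in limma only miR-22-3p of them passed, while DESeq2 also called miR-223-3p (adjusted p = 0.0431). After each genotype's mean was taken out, r with miR-143-3p still ranged from 0.809 (miR-195a-5p) to 0.937 (miR-22-3p), against 0.444 for miR-145a-5p. These correlations describe the same 12 libraries, share their depth and their fixed total, and were the highest of those searched, so no p is given.

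**Figure D4:**
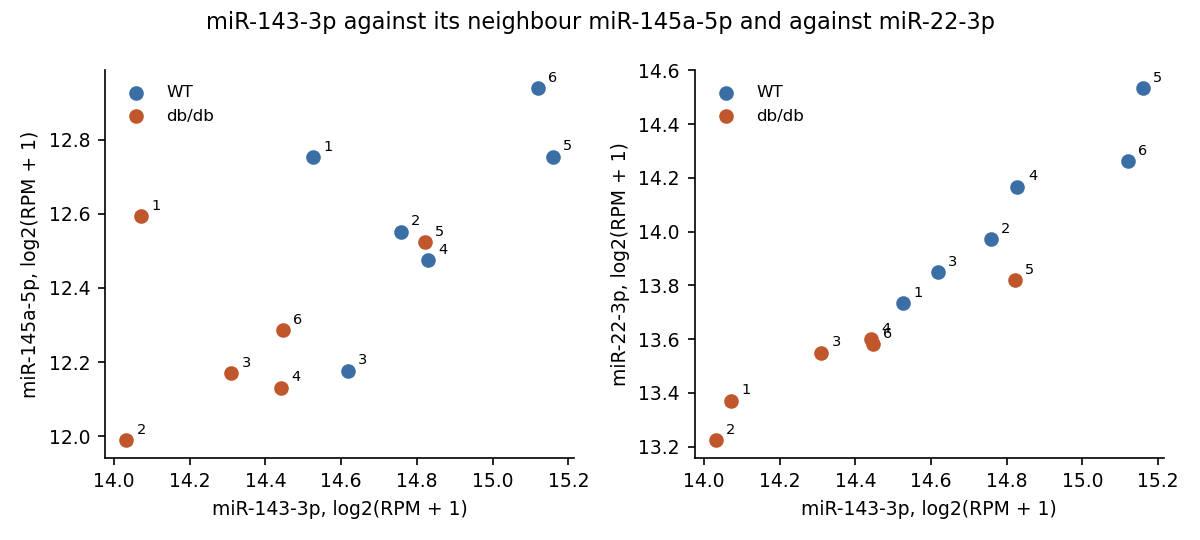
Log2(RPM + 1) of miR-145a-5p (left) and of miR-22-3p (right) against that of miR-143-3p (horizontal axes) in 6 WT (blue) and 6 db/db (orange) libraries with their sample numbers. The points for miR-22-3p lie close to a line (r = 0.964) and those for miR-145a-5p scatter more widely (r = 0.662).

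miR-145a-5p had other nearest patterns. They were miR-345-5p (r = 0.890), miR-133b-3p, a muscle miRNA made with miR-206 (0.792), miR-378c (0.750), miR-30e-3p (0.743) and miR-15b-5p (0.732). No miRNA is in both sets of 5. 8 of the miRNAs compared had a higher r with miR-145a-5p than miR-143-3p had, and most had a lower one (median r 0.0148). The log2 fold changes of this set lay between -0.51 ± 0.22 for miR-30e-3p and -0.14 ± 0.17 for miR-15b-5p (SE), and none passed in limma.

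Other miRNAs that act on smooth muscle did not share a direction. In a list of 7 known for promoting smooth muscle proliferation none passed in limma, and at an unadjusted p under 0.05 there were 2 above WT and 3 below it, with a median log2 fold change of 0.02. Over all 646 miRNAs tested, 28 (4.33%) were above WT and 30 below it at that p. miR-24-3p, induced by platelet-derived growth factor, stood between 24588 and 28435 RPM in WT and between 18118 and 24005 RPM in db/db libraries, so its groups did not overlap (-0.36 ± 0.12, SE; limma adjusted p = 0.198). miR-21a-5p stood at -0.45 ± 0.15 and miR-146a-5p, which is induced by NF-kB, at -0.47 ± 0.19 (limma log2 fold change ± SE, with adjusted p of 0.198 and 0.504). On the other side miR-31-5p had a WT mean of 269 ± 53.5 RPM and a db/db mean of 401 ± 30.6 RPM (SD over 6 libraries). Its log2 fold change was 0.59 ± 0.21 (SE, with a limma adjusted p of 0.268). miR-221-3p stood at 0.38 ± 0.16 and miR-222-3p, which shares its seed and its transcript, at 0.10 ± 0.22 (limma log2 fold change ± SE, with adjusted p of 0.504 and 0.860). Both miR-31-5p and miR-221-3p were above their WT median in 6 of 6 db/db libraries. How many of all 646 miRNAs tested had that, or groups that did not overlap, was not counted. DESeq2 called miR-31-5p and miR-221-3p higher (adjusted p = 0.0283 and 0.0431) while edgeR did not (adjusted p = 0.135 each). miR-26a-5p stood at 0.02 ± 0.12.

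In the list of 4 on the contractile side none passed either, and none was under an unadjusted 0.05. miR-1a-3p and miR-133a-3p, which serum response factor also drives, stood at -0.25 ± 0.14 and 0.07 ± 0.11 (log2 fold change, SE), and both are mainly miRNAs of heart muscle in these libraries. miR-10a-5p, which takes part in smooth muscle differentiation, stood at -0.23 ± 0.16 and miR-204-5p, which restrains vascular calcification, at -0.05 ± 0.19. The median over the 4 was -0.14, against -0.04 over all miRNAs tested.

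**Figure D5:**
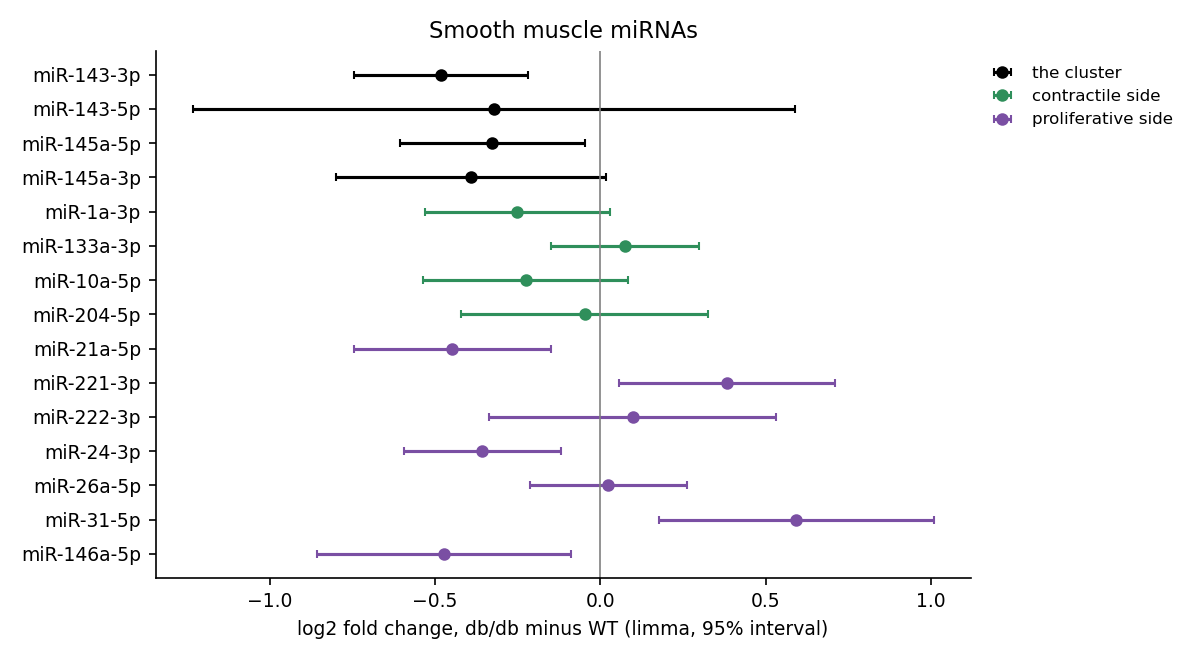
Log2 fold change of db/db over WT by limma (horizontal axis) with 95% intervals for the 4 members (black), the contractile side (green) and the proliferative side (purple) of the smooth muscle miRNAs. The intervals of miR-143-3p, miR-145a-5p, miR-21a-5p, miR-24-3p and miR-146a-5p lie below 0 and those of miR-221-3p and miR-31-5p above it, and none of these passed adjustment over all 646 miRNAs.

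Markers of the other cells of the heart were read beside these values. 6 of 6 fibroblast miRNAs were in the table, none at 0 in any library, and their sum ranged from 6076 to 8655 RPM in WT and from 6335 to 7778 RPM in db/db libraries. Among them miR-199a-3p stood at 0.06 ± 0.14, miR-199b-3p, which has nearly the same values, at 0.06 ± 0.14 and miR-199a-5p at -0.36 ± 0.18 (log2 fold change, SE). The others did not share a direction, with miR-214-3p at 0.45 ± 0.22 and miR-214-5p at -0.99 ± 0.49, and at an unadjusted p under 0.05 limma placed 1 of the 6 above WT and 2 below it. 4 of 4 endothelial miRNAs were present, and their sum ranged from 20045 to 30426 RPM in WT and from 16736 to 26261 RPM in db/db libraries. It was mostly miR-126a-3p, with a mean of 21959 of 25233 RPM in WT and 17883 of 21048 RPM in db/db libraries. miR-126a-3p stood at -0.30 ± 0.14, miR-126a-5p at -0.11 ± 0.15 and miR-139-5p at 0.08 ± 0.16. 5 of 5 erythroid miRNAs were present, and their sum ranged from 10034 to 21354 RPM in WT and from 18552 to 31007 RPM in db/db libraries. Most of that sum was miR-486a-5p, with a mean of 15389 of 16837 RPM in WT and 21760 of 23881 RPM in db/db libraries. miR-486a-5p, whose reads cannot be told from those of the near-identical miR-486b-5p, had the highest level of this list and stood at 0.53 ± 0.14 (limma adjusted p = 0.0869; edgeR adjusted p = 0.0452; DESeq2 adjusted p = 0.0283), followed by miR-451a at 0.26 ± 0.27 and miR-486a-3p at 0.54 ± 0.24. miR-144-5p was at 0 in some libraries and stood at -0.53 ± 0.63 in limma, the 1 member of this list below 0 there. On recovered reads its estimate was above 0, both by edgeR (0.30) and by DESeq2 (0.35).

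6 of 6 leukocyte miRNAs were present, and their sum ranged from 3316 to 5181 RPM in WT and from 2981 to 6769 RPM in db/db libraries. It was mostly miR-150-5p, with a mean of 3570 of 4092 RPM in WT and 4196 of 4577 RPM in db/db libraries. miR-150-5p stood at 0.20 ± 0.16, miR-223-3p at -0.72 ± 0.22 and miR-155-5p at 0.28 ± 0.33 (log2 fold change, SE), with 3 of the 6 below 0. The groups of miR-223-3p did not overlap (306 to 478 RPM in WT and 175 to 289 RPM in db/db), a trait not counted over all miRNAs tested. In limma miR-223-3p had an adjusted p of 0.109, and DESeq2 called it (adjusted p = 0.0431). miR-223-5p at -1.22 ± 1.00 and miR-142a-3p at -0.91 ± 0.98 were at 0 in some libraries. In the cardiomyocyte list, which shares miR-1a-3p and miR-133a-3p with the contractile list, miR-133b-3p stood at -0.29 ± 0.15. 6 of its 8 members were below 0, with a median of -0.26, and miR-208a-3p, at -1.34 ± 0.55, was the 1 member under an unadjusted 0.05 in limma. The part of these other cells in the level of the miR-143 and miR-145a cluster was not tested.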

How the data were processed

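Small RNA libraries from 12 samples (6 WT, 6 db/db) were read from 1 table deposited by the authors as TPM. Columns total 1000000 each, and within a column every value is a multiple of what 1 read is worth, so the deposited values were treated as RPM with no length term. Per the submitters' processing notes the genome build was GRCm39; aligner and miRNA annotation: not given in the sources used here. Whole reads were recovered for 100% of values (tolerance 0.01 of a read); a value of 0 allows up to 3 reads. All 66 library pairs differed by more than counting noise (chi-square over its degrees of freedom at least 21.6).

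limma 3.58.1 (R 4.3.3) with an abundance trend was fitted to log2(RPM + 1) of the 646 rows averaging 1 RPM or more, two-sided, with Benjamini-Hochberg adjustment and a threshold of 0.05. On this scale fold changes of low miRNAs can come out smaller, larger or with another sign than on recovered reads. miR-143-5p stood at -0.32 in limma and -0.45 in edgeR, miR-208b-3p at 1.09 and 0.42, and miR-144-5p at -0.53 and 0.30. Recovered reads were tested with DESeq2 1.42.0 and with the quasi-likelihood test of edgeR 4.0.16 after TMM scaling. Other alternatives were pseudocounts, filters, scalings, library weights, a replicate block and leaving out libraries. Ratios were compared by exact permutation over 924 assignments, and correlations by 100000 resamples, exact within a genotype. The fits were tested on simulated data, where most small changes were not recovered, so a miRNA that did not pass may still differ. Python 3.11.15, scipy 1.17.1 and matplotlib 3.10.9 were used.

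Named by rule were the members, the 5 miRNAs with the highest Pearson r with each guide arm (mean of at least 100 RPM), neighbours of the guide arms in level, both smooth muscle lists, up to 3 of each other list by level, and other rows named miR-143 or miR-145. The neighbours of the passenger arms, miR-486b-5p, miR-214-3p, miR-214-5p, miR-208a-3p, and the list members at 0 in some libraries (miR-208b-3p, miR-144-5p, miR-223-5p, miR-142a-3p) were named outside the rule, after their values were seen. The members and lists were chosen with earlier results of these data known. Mature sequences of 0 of the 4 members were in the table of sequences used.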

Additional observations from a re-analysis of the deposited data

Results flagged for a closer look

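In a search of 16 groups of 6 values, 1 held a library far from the others, where chance flags about 1 in 20, or 0.8 here. The log2 ratio of miR-143-3p over miR-145a-5p was 1.48 in db/db library 1, a 2.78-fold excess, and at least 2.04 in the other db/db libraries, a gap of 0.678 of the range. In that library miR-145a-5p had its highest db/db value, 6178 RPM, and miR-143-3p its second lowest, 17206 RPM. WT library 1 was likewise the lowest of its genotype in this ratio, at 1.77 against at least 2.18 in the other WT libraries. It was not flagged, and miR-143-3p had its lowest WT value there, 23602 RPM.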

How the results depend on the processing

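The log2 fold changes of all 4 members kept their sign in all 26 alternatives each. miR-143-3p ranged from -0.50 to -0.41 over other settings and from -0.58 to -0.42 with 1 library left out. The labels do not say that sample numbers pair the samples. Over all 646 miRNAs, each with equal weight, same-numbered libraries did not deviate together (r from -0.0494 to 0.118, with 1 of 6 correlating best with its own number). That measure does not show whether they do so for single miRNAs. With the number as a block the limma SE went from 0.13 to 0.089 for miR-143-3p and from 0.14 to 0.11 for miR-145a-5p. It went from 0.20 to 0.17 for miR-145a-3p and was 0.46 both ways for miR-143-5p. With the number as a replicate block miR-143-3p passed in limma (-0.48, adjusted p = 0.00145) and in edgeR (-0.44, adjusted p = 0.00958), and no other member did. Its adjusted p ranged from 0.00145 to 0.691 over other settings, the highest without a trend. Against 1 miRNA called, limma called 0 at a pseudocount of 0.1 or 10 RPM, without a filter, at a mean of at least 10 RPM, without a trend, and with WT 4 and db/db 6 left out. The count was 2 with median-of-ratios or TMM scaling and 9 with the block. edgeR called 3, or 11 with the block, and DESeq2 8. Leaving out 1 library gave 0 to 7 calls. For these counts the cause was not tested.

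The difference in the log2 ratio of the miR-143 arms ranged from -0.47 to 0.28 with 1 library left out, above 0 without WT 3 (0.28) or db/db 6 (0.02). That of the miR-145a arms ranged from -0.15 to 0.23, below 0 without WT 3 (-0.15), without db/db 6 (-0.10) or without both WT 4 and db/db 6 (-0.11). The correlation of miR-143-3p with miR-145a-5p passed on linear RPM (r = 0.692, permutation p = 0.0127; adjusted, 0.0382), that of the miR-143 arms was -0.0078 within WT and that of the miR-145a arms 0.0616 within db/db. With the block the ratio of miR-143-3p to miR-145a-5p had an exact permutation p of 0.0313 (adjusted, 0.0938). The summed level (log2 of db/db over WT) stayed between -0.54 and -0.39. Depth limits miR-143-5p most, at 8 to 91 reads a library.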
